A study of Mus musculus with 12 samples.

Results

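Transcripts of 10 G protein-coupled receptors that set how much hormone islet cells release were measured in sorted β- and non-β-cells from females of the NOD strain, which becomes diabetic through autoimmunity. The receptors are Glp1r, Gipr, Gcgr, Gpr119, Ffar1, Ffar4, Chrm3, Adra2a, Sstr2 and Sstr3. They were taken as a list of named genes, they are 10 of the 52962 genes in the table, and all 10 passed the filter on low counts that left 15598 genes for testing. Islets were cultured overnight, dispersed and sorted by autofluorescence after removal of CD45-positive cells, per the study's methods. The 12 samples form 4 groups with 3 replicates each, which are 4-week NOD β-cells, 8-week NOD β-cells, 4-week NOD non-β-cells and 8-week NOD non-β-cells, with no treatment or transgene in any of them. Replicates were pools of mice according to the study, the sample labels do not say so, and p-values measure only the spread between these samples. There was no other strain, so age and any change of the NOD disease with age cannot be told apart.

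A receptor of this family passes its signal to a G protein whose alpha subunit decides the response. Receptors coupled to Gs raise cyclic AMP through adenylyl cyclase and amplify glucose-stimulated insulin secretion, those coupled to Gq act through phospholipase C and calcium, and those coupled to Gi lower cyclic AMP and restrain secretion. Glp1r, Gipr, Gcgr and Gpr119 are best known as Gs receptors, Ffar1, Ffar4 and Chrm3 as Gq receptors, and Adra2a, Sstr2 and Sstr3 as Gi receptors. Their ligands come from the gut, from nerves, from circulating lipids and from neighbouring islet cells.

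Libraries held between 13755106 and 27040652 estimated counts. Of the 8 β-cell markers, 8 were higher in the β-cell fraction at both ages, and of the 8 alpha-cell and 4 delta-cell markers, all were lower there (limma-voom, adjusted p under 0.05). Leukocyte markers summed to 51.7 to 53.4 CPM (reads of a gene in a library of standard size, with TMM scaling) in 4-week β-cells and 68.9 to 77.4 CPM at 8 weeks. In non-β-cells they summed to 7.78 to 13.2 CPM and 14.3 to 20.3 CPM. Most of the sum came from Cd68 in every library. The 2 of these markers that were tested were higher in β-cells at both ages (limma-voom, adjusted p under 0.05). Within β-cells the summed β-cell markers went from 46322 to 81304 CPM at 4 weeks to between 106957 and 112521 CPM at 8 weeks, and the summed alpha-cell markers from between 8247 and 12037 CPM to between 4776 and 5641 CPM. Within non-β-cells the summed endothelial markers went from between 30.7 and 66.1 CPM to between 260 and 747 CPM, and the summed mesenchymal markers from between 75.3 and 235 CPM to between 502 and 766 CPM. The 4-week samples numbered 3 stood apart from the others of their groups in both fractions. Chi-square per degree of freedom was 82.2 and 88.5 against 25.0 between the others in β-cells, and 36.9 and 44.7 against 12.1 in non-β-cells. Replicate 1 of the 8-week non-β-cells also stood apart, at 22.9 and 32.0 against 9.33 between the others. Receptor calls that change without these samples are given below.

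**Figure D1:**
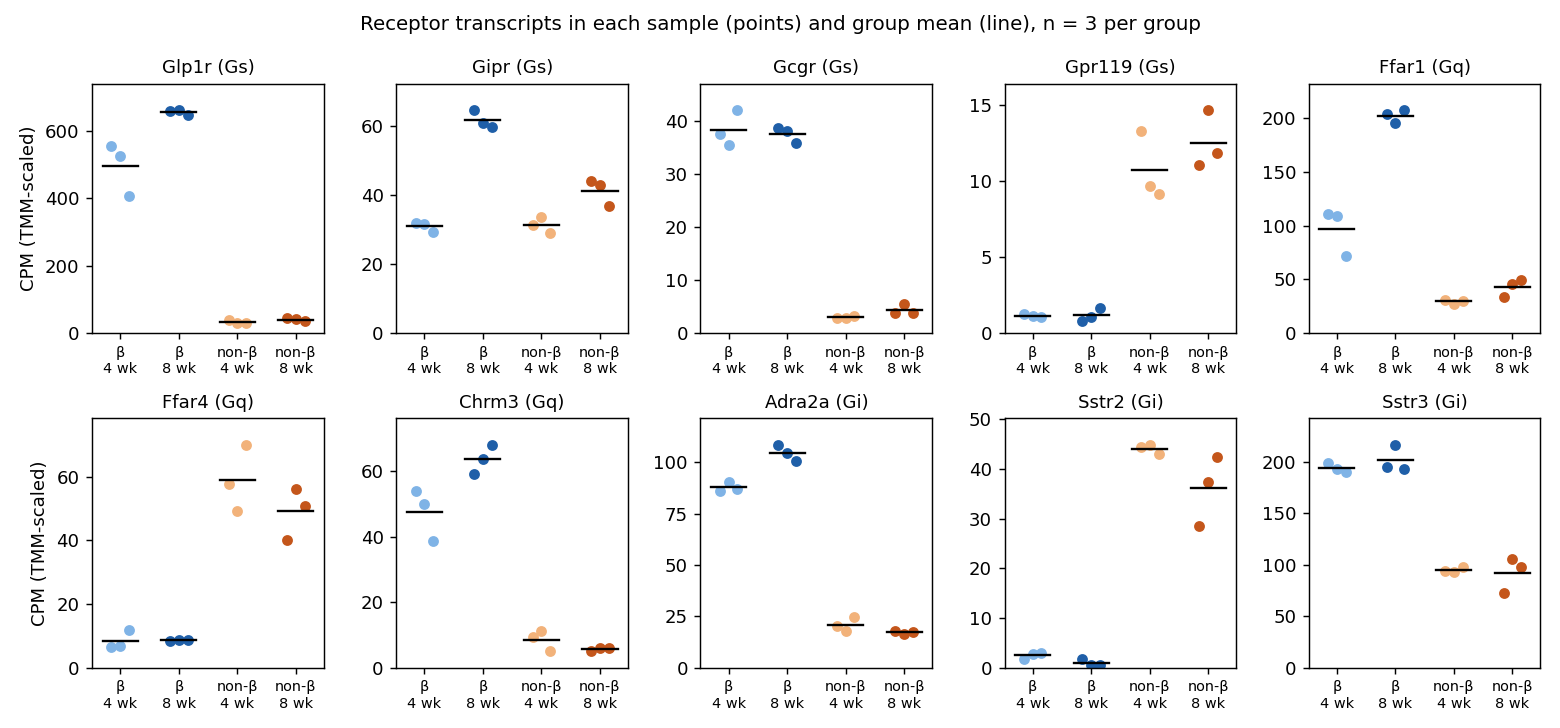
CPM of each receptor on the y axis (linear, starting at 0 and scaled for each panel) in the 4 groups, with a point for each of the 3 samples and a line at the group mean. Glp1r, Gcgr, Ffar1, Chrm3, Adra2a and Sstr3 are higher in both β-cell groups than in either non-β-cell group, Gpr119, Ffar4 and Sstr2 are lower in both, and Gipr is level between fractions at 4 weeks.

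The receptors divided by fraction. At 4 weeks 6 of the 10 had more transcript in β-cells and 3 had less, where 48.5% of all tested genes differed between the fractions (24.9% higher in β-cells, 23.7% lower). At 8 weeks the counts were 7 and 3, where 49.2% of all tested genes differed (23.6% higher, 25.6% lower). The groups compared did not overlap for 9 receptors at 4 weeks and for all 10 at 8 weeks, beside 53.1% and 64.9% of all tested genes, and the receptor missing from the 4-week count was Gipr. In sorted bulk samples, fewer cells that express a receptor and less of its RNA per cell cannot be told apart.

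Bases upstream of the gene start are shown for the receptors at the ends of this division at 8 weeks, Glp1r and Chrm3 on the β-cell side and Sstr2 and Gpr119 on the non-β-cell side, and for Ffar1, which changed most with age among receptors that rose in β-cells. Each window holds 150 bases, from 250 to 101 bases before the RefSeq start, taken from RefSeq on GRCm38 and written along the gene's strand. The windows lie at chr17:30901617-30901766 on the plus strand for Glp1r, chr13:10360904-10361053 on the minus strand for Chrm3, chr7:30861571-30861720 on the minus strand for Ffar1, chr11:113619077-113619226 on the plus strand for Sstr2 and chrX:48674579-48674728 on the minus strand for Gpr119. None of the 5 overlaps an annotated exon. Capitals mark matches on either strand to CANNTG (the E-box), TAAT (a homeodomain core) and TGACG (part of the cyclic AMP response element), and no matches overlap each other.
Glp1r: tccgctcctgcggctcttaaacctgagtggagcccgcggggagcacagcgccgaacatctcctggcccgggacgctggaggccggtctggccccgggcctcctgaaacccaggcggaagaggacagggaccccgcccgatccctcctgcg
Chrm3: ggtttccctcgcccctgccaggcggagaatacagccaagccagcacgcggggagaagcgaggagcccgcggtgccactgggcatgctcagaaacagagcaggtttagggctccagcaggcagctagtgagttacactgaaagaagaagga
Ffar1: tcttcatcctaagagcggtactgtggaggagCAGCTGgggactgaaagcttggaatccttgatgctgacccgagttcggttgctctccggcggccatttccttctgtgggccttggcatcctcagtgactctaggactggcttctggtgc
Sstr2: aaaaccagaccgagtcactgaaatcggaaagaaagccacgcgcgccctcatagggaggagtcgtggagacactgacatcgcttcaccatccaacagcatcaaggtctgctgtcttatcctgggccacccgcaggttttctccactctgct
Gpr119: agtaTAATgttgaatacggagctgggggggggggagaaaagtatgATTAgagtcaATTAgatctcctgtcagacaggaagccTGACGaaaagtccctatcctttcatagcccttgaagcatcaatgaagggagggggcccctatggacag
The Glp1r, Chrm3 and Sstr2 windows held none of these letters. Ffar1 held 1 CANNTG match, a sequence found in 49.3% of 32807 promoter windows of the same length. Gpr119 held 3 TAAT matches and 1 TGACG match, against 43.6% and 8.37% of windows with at least 1 match. G and C made up 71.3% of the Glp1r window and 48.7% of the Gpr119 window. Promoters of 9 of the 10 receptors were matched in the RefSeq table, all but Gipr.

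Glp1r, the receptor for the incretin GLP-1, lies on the plus strand at chr17:30901817-30940791 (GRCm38, as for all genes here). Its level in β-cells was 554, 526 and 406 CPM at 4 weeks and 657, 661 and 648 CPM at 8 weeks. In non-β-cells it was 39.2, 31.0 and 30.5 CPM at 4 weeks and 43.5, 40.5 and 36.4 CPM at 8 weeks. Every β-cell sample was far above every non-β-cell sample, and within β-cells all 8-week samples were above all 4-week samples, with replicate 3 of 4 weeks the lowest. The β-cell level exceeded the non-β-cell level by 3.87 on the log2 scale at 4 weeks (SE 0.14, limma-voom adjusted p = 4.50e-10) and by 4.03 at 8 weeks (SE 0.14, limma-voom adjusted p = 3.39e-10). Glp1r rose with age in β-cells by 0.42 (SE 0.13, limma-voom adjusted p = 0.0381). That rise lost its call when any of 8 libraries was left out (replicate 2 or 3 of the 4-week and 1, 2 or 3 of the 8-week β-cells, and replicate 1 or 2 of the 4-week and 2 of the 8-week non-β-cells), with log2 changes of 0.28 to 0.44 and limma-voom adjusted p between 0.0521 and 0.125. It also lost its call with edgeR's quasi-likelihood test (adjusted p = 0.0559), and over all 22 alternatives its adjusted p ran from 0.00506 to 0.125. In non-β-cells the change was 0.26 (SE 0.15, limma-voom adjusted p = 0.293), and the difference between both changes was 0.16 (SE 0.20, adjusted p = 0.730). Antisense genes overlap Glp1r, and whether counting used the strand of the reads is not stated.

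Gipr encodes the receptor of the incretin GIP and lies on the minus strand at chr7:19156061-19166127. In β-cells it stood at 31.8, 31.7 and 29.1 CPM at 4 weeks and at 64.5, 60.9 and 59.7 CPM at 8 weeks. In non-β-cells it stood at 31.4, 33.5 and 29.0 CPM at 4 weeks and at 43.9, 42.9 and 36.9 CPM at 8 weeks. The 4-week samples of both fractions covered the same range, and the 8-week samples were above them in both, with the β-cell samples highest and clear of all others. At 4 weeks the fractions differed by -0.02 on the log2 scale (SE 0.11, limma-voom adjusted p = 0.900), while at 8 weeks β-cells were higher by 0.58 (SE 0.10, adjusted p = 0.000455). With age Gipr rose by 1.00 in β-cells (SE 0.10, limma-voom adjusted p = 4.15e-05) and by 0.39 in non-β-cells (SE 0.11, adjusted p = 0.0256). The change in β-cells was called without each of the 12 libraries in turn. The change in non-β-cells was not called without replicate 1 or 3 of the 4-week or replicate 1 or 2 of the 8-week samples (0.32 to 0.38, limma-voom adjusted p between 0.0730 and 0.121). Among the 10 receptors, limma-voom called a difference in age change between the fractions for Gipr alone, of 0.60 (SE 0.15, limma-voom adjusted p = 0.0376), and for 5.13% of all tested genes (1.8% with the higher change in β-cells, 3.33% with the lower). DESeq2 and sample quality weights also called this difference for Chrm3 and Adra2a. The difference for Gipr kept its direction but was not called when any of 9 libraries was left out (0.51 to 0.63, adjusted p between 0.0655 and 0.107), these being all but replicate 3 of the 4-week samples in each fraction and replicate 1 of the 8-week non-β-cells.

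Gcgr, the glucagon receptor, through which alpha-cells can act on β-cells, lies on the plus strand at chr11:120530699-120538986. Its β-cell level was 37.6, 35.4 and 42.0 CPM at 4 weeks and 38.7, 38.1 and 35.9 CPM at 8 weeks. In non-β-cells it was 2.91, 2.74 and 3.30 CPM at 4 weeks and 3.81, 5.45 and 3.85 CPM at 8 weeks. The ages overlapped in β-cells, whereas in non-β-cells the 8-week samples were all slightly above the 4-week ones. The fraction difference was 3.68 at 4 weeks (SE 0.21, limma-voom adjusted p = 2.28e-08) and 3.16 at 8 weeks (SE 0.19, adjusted p = 3.33e-08). The age change was -0.03 in β-cells (SE 0.10, limma-voom adjusted p = 0.895), against 0.49 in non-β-cells (SE 0.26, adjusted p = 0.250). In non-β-cells edgeR's quasi-likelihood test gave 0.54 with an adjusted p of 0.0484, and DESeq2 an adjusted p of 0.0400, the lowest over 22 alternatives, of which the highest was 0.474. An antisense gene, Gm11789, covers the start of Gcgr.

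Gpr119 senses oleoylethanolamide and related fatty acid amides and lies on the minus strand at chrX:48667979-48674478. It was the only Gs receptor of the list that was lower in β-cells. There it reached 1.22, 1.15 and 1.06 CPM at 4 weeks and 0.786, 1.06 and 1.64 CPM at 8 weeks, against 13.3, 9.69 and 9.17 CPM and 11.0, 14.6 and 11.9 CPM in non-β-cells. No β-cell sample came near the non-β-cell samples, and the ages overlapped in both fractions. The fraction difference was -3.21 at 4 weeks (SE 0.39, limma-voom adjusted p = 2.61e-05) and -3.41 at 8 weeks (SE 0.38, adjusted p = 1.02e-05). The β-cell values rest on 17 to 41 estimated counts per library, so an age change there of -0.02 has an SE of 0.52 on the log2 scale.

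Ffar1, a receptor for long-chain fatty acids that amplifies insulin secretion, lies on the minus strand at chr7:30857390-30861564. In β-cells it was 111, 109 and 71.7 CPM at 4 weeks and 204, 196 and 207 CPM at 8 weeks. In non-β-cells it was 31.1, 27.2 and 29.8 CPM at 4 weeks and 33.4, 46.0 and 49.4 CPM at 8 weeks. The 8-week samples lay above the 4-week samples in both fractions, with a wide gap in β-cells and a narrow one in non-β-cells. Ffar1 rose with age in β-cells by 1.09 on the log2 scale (SE 0.16, limma-voom adjusted p = 0.000681), and the call held without each library in turn, with a change of 0.88 to 1.17. In non-β-cells the change was 0.51 (SE 0.19, limma-voom adjusted p = 0.0931), and DESeq2 gave an adjusted p of 0.0174. Limma-voom called it without replicate 3 of the 4-week β-cells (adjusted p = 0.0211) or replicate 1 of the 8-week non-β-cells (adjusted p = 0.0459). It was also called without both 4-week samples numbered 3 (0.52, limma-voom adjusted p = 0.0283). Over 22 alternatives the adjusted p ran from 0.00423 to 0.275. The change in β-cells exceeded that in the other fraction by less than the test could call (0.57, SE 0.25, limma-voom adjusted p = 0.237). The fraction difference was 1.70 at 4 weeks (SE 0.18, limma-voom adjusted p = 8.18e-06) and 2.27 at 8 weeks (SE 0.18, adjusted p = 3.64e-07).

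Ffar4, another receptor for long-chain and omega-3 fatty acids, lies on the plus strand at chr19:38097071-38114263 and had the opposite distribution. It was 6.57, 6.86 and 11.8 CPM in 4-week β-cells and 8.56, 8.82 and 8.83 CPM at 8 weeks. Non-β-cells had 57.7, 49.4 and 70.0 CPM at 4 weeks and 40.3, 56.3 and 51.0 CPM at 8 weeks. The fractions were clearly apart and the ages overlapped within each. Replicate 3 of 4 weeks was the highest sample of both fractions. Ffar4 was lower in β-cells by 2.85 on the log2 scale at 4 weeks (log2 difference -2.85, SE 0.23, limma-voom adjusted p = 5.78e-07) and the difference was -2.46 at 8 weeks (SE 0.22, adjusted p = 1.40e-06). Its age change was 0.11 in β-cells (SE 0.27) and -0.28 in non-β-cells (SE 0.17), and neither passed the test.

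Chrm3, the muscarinic receptor through which acetylcholine from parasympathetic nerves promotes insulin secretion, lies on the minus strand at chr13:9875486-10360847. Its β-cell level was 54.0, 50.1 and 38.6 CPM at 4 weeks and 59.1, 63.7 and 67.9 CPM at 8 weeks. In non-β-cells it was 9.33, 11.3 and 4.98 CPM at 4 weeks and 5.19, 5.90 and 6.06 CPM at 8 weeks. All β-cell samples at 8 weeks were above those at 4 weeks, and in non-β-cells the ages overlapped through replicate 3 of 4 weeks. The fraction difference was 2.52 at 4 weeks (SE 0.23, limma-voom adjusted p = 2.01e-06) and 3.48 at 8 weeks (SE 0.28, adjusted p = 4.32e-07). The age change was 0.43 in β-cells (SE 0.16, limma-voom adjusted p = 0.0865) and -0.53 in non-β-cells (SE 0.32, adjusted p = 0.319), and their difference of 0.96 had an SE of 0.36 (adjusted p = 0.164). Without replicate 3 of the 4-week non-β-cells, limma-voom called the change in β-cells (0.43, adjusted p = 0.0303), the change in non-β-cells (-0.84, adjusted p = 0.0481) and the difference between them (1.27, adjusted p = 0.0243). Without both 4-week samples numbered 3, limma-voom called the same 3 values, at 0.29 (adjusted p = 0.0405), -0.83 (adjusted p = 0.0137) and 1.13 (adjusted p = 0.00943). Over the alternatives the adjusted p ran from 0.0221 to 0.265, from 0.0137 to 0.550 and from 0.00943 to 0.304 for these 3 values. Several noncoding genes lie within or opposite Chrm3.

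Adra2a, the receptor by which adrenaline and noradrenaline restrain insulin secretion, lies on the plus strand at chr19:54044151-54048982. In β-cells it was 86.3, 90.5 and 87.2 CPM at 4 weeks and 108, 105 and 101 CPM at 8 weeks. In non-β-cells it was 20.5, 17.8 and 24.5 CPM at 4 weeks and 18.0, 16.5 and 17.5 CPM at 8 weeks. The β-cell samples of 8 weeks were above those of 4 weeks by more than the spread within either group, but the change of 0.25 (SE 0.10, limma-voom adjusted p = 0.101) did not pass the test over all genes. It was called with sample quality weights (adjusted p = 0.00542) and without both 4-week samples numbered 3 (adjusted p = 0.0427), and the adjusted p reached 0.281 under other alternatives. In non-β-cells the change was -0.25 (SE 0.14, limma-voom adjusted p = 0.252). The difference between both changes was 0.50 (SE 0.17, limma-voom adjusted p = 0.117), called by DESeq2 (adjusted p = 0.0424) and with sample quality weights (adjusted p = 0.0212), with an adjusted p of up to 0.243 under other alternatives. The fraction difference was 2.08 at 4 weeks (SE 0.11, limma-voom adjusted p = 1.84e-08) and 2.59 at 8 weeks (SE 0.12, adjusted p = 3.87e-09).

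Sstr2, the somatostatin receptor known for suppression of glucagon secretion in alpha-cells, lies on the plus strand at chr11:113619342-113626028. It showed the widest gap between the fractions among the 10 receptors. In non-β-cells it was 44.5, 44.8 and 42.9 CPM at 4 weeks and 28.6, 37.4 and 42.3 CPM at 8 weeks, and in β-cells it was 1.83, 2.77 and 2.89 CPM at 4 weeks and 1.80, 0.528 and 0.642 CPM at 8 weeks. In both fractions the 4-week samples stood above the 8-week samples, in each case by a narrow margin over the highest 8-week sample. The fraction difference was -4.13 at 4 weeks (SE 0.31, limma-voom adjusted p = 3.29e-07) and -5.40 at 8 weeks (SE 0.49, adjusted p = 1.50e-06). The age change was -1.59 in β-cells (SE 0.56, limma-voom adjusted p = 0.0704) and -0.32 in non-β-cells (SE 0.15, adjusted p = 0.180). The β-cell change rests on 14 to 70 estimated counts per library. It was called by edgeR's quasi-likelihood test (-1.38, adjusted p = 0.0215) and DESeq2 (-1.37, adjusted p = 0.000932). Without replicate 1 of the 8-week non-β-cells limma-voom also called it (-1.61, adjusted p = 0.0336), and the adjusted p reached 0.228 under other alternatives. Alpha-cell markers, named above, moved in the same direction in these β-cell samples. Of these markers 6 of 8 were called lower at 8 weeks, beside 9.35% of all tested genes, and their part in the result was not tested. Slc39a11 overlaps Sstr2 on the opposite strand.

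Sstr3, a somatostatin receptor found on primary cilia, lies on the minus strand at chr15:78537008-78544685. It was 199, 193 and 190 CPM in 4-week β-cells and 195, 216 and 193 CPM at 8 weeks. Non-β-cells had 94.3, 93.1 and 98.3 CPM at 4 weeks and 72.3, 106 and 98.1 CPM at 8 weeks. The fractions did not overlap at either age and the ages overlapped in both. Sstr3 was higher in β-cells by 1.03 at 4 weeks (SE 0.12, limma-voom adjusted p = 2.30e-05) and by 1.16 at 8 weeks (SE 0.13, adjusted p = 7.38e-06). Its age change was 0.05 in β-cells (SE 0.12) and -0.08 in non-β-cells (SE 0.13).

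Levels of different receptors were compared per kilobase of the longest protein-coding transcript, as CPM per kb. In 4-week β-cells Glp1r was first at 85.2 ± 13.5 CPM per kb (SD, n = 3), followed by Sstr3 at 45.4 ± 1.04. Ffar1, Gcgr and Adra2a came next at 23.3, 19.6 and 18.2 CPM per kb, each overlapping its neighbour in that order. Chrm3 and Gipr overlapped at 11.0 and 10.8 CPM per kb, and Ffar4, Sstr2 and Gpr119 were last. At 8 weeks Glp1r remained first at 113 ± 1.15 CPM per kb, Ffar1 at 48.5 overlapped Sstr3 at 47.1, and Gipr at 21.6 overlapped Adra2a at 21.7. Ffar1 thus went from the range of Gcgr to that of Sstr3, and Gipr from the range of Chrm3 to that of Adra2a.

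Non-β-cells had another order. Ffar4 was first at both ages, at 42.1 ± 7.39 CPM per kb at 4 weeks and 35.1 ± 5.80 at 8 weeks (SD, n = 3). Sstr3, Sstr2 and Gipr followed at 22.3, 20.6 and 11.0 CPM per kb at 4 weeks without overlap, and at 21.5, 16.8 and 14.4 at 8 weeks, where each overlapped the next. The lowest was Gcgr at 4 weeks, overlapping Chrm3, and Chrm3 at 8 weeks. Of the summed level per kb of the 10 receptors, Gs receptors made up 52.4% ± 1.41 in 4-week β-cells and 52.6% ± 0.437 at 8 weeks, against 19.0% ± 2.10 and 25.0% ± 3.88 in non-β-cells. Gq receptors made up 18.2% at 4 weeks and 23.7% at 8 weeks in β-cells, against 42.0% and 39.5% in non-β-cells. Gi receptors made up 29.4% and 23.7% in β-cells, against 39.0% and 35.5% in non-β-cells. Single genes set much of these shares. Glp1r held 85.2 of the 116 CPM per kb of Gs receptors in 4-week β-cells. Ffar4 held 42.1 of the 51.1 CPM per kb of Gq receptors in 4-week non-β-cells.

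Some transcript of each receptor was present in the fraction where it was lower. Sstr2 in β-cells was at 5.67% of its mean non-β-cell level at 4 weeks and 2.75% at 8 weeks, the lowest among the receptors at each age. Glp1r in non-β-cells was at 6.77% of its β-cell level at 4 weeks and 6.12% at 8 weeks, and Gcgr at 7.78% and 11.6%. Hormone transcripts gave the scale, since Ins1 in non-β-cells was at 2.34% and 3.09% of its β-cell level, Gcg in β-cells at 6.36% and 1.62% of its non-β-cell level and Sst in β-cells at 9.35% and 8.34%, with a highest sample of 14.7%. Sstr3 was the least divided of the 9 receptors that differed at both ages, at 49.1% and 45.7%. Ffar1 at 30.2% and 21.2%, Adra2a at 23.8% and 16.5% and Ffar4 at 14.3% and 17.8% had means above these hormone means of the same age. So did Chrm3 at 18.0% and 9.00% and Gpr119 at 10.6% and 9.28%, and Gcgr at 8 weeks alone. Of these hormones only Ins1 was read in non-β-cells, and Glp1r and Gcgr there were above Ins1 at both ages. The part of cells of the other fraction in these levels was not tested.

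**Figure D2:**
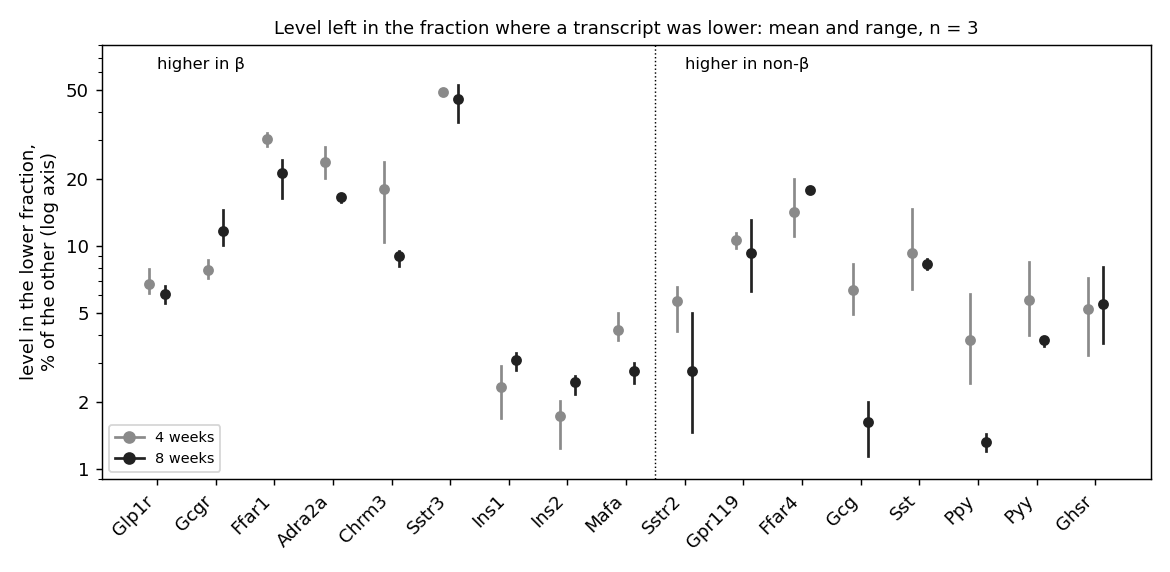
Level in the fraction where a transcript was lower, as a percent of its mean in the other fraction (log y axis), for 9 receptors and for hormone and marker genes, with the mean as a point and the range of 3 samples as a bar, in grey for 4 weeks and black for 8 weeks. Gipr, which did not differ at 4 weeks, is not drawn. Ins1, Ins2 and Mafa lie below all 6 receptors on the β-cell side, and Gcg in β-cells falls from 6.36% to 1.62%.

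With age, 3 of the 10 receptors rose in β-cells and 0 fell, where 17.9% of all tested genes changed (8.59% higher, 9.35% lower). The 3 were Glp1r, Gipr and Ffar1, and Sstr2 was the 1 receptor lower at an unadjusted p under 0.05 in limma-voom and the 1 called lower by edgeR and by DESeq2. In non-β-cells 1 receptor rose, Gipr, and 0 fell (limma-voom, 0 also at an unadjusted p under 0.05 and by edgeR and DESeq2), where 16.4% of all tested genes changed (11.6% higher, 4.8% lower). The ages did not overlap for 6 receptors in β-cells and for 4 in non-β-cells, beside 40.3% and 32.8% of all tested genes. The median log2 age change of the 10 was 0.18 in the β-cell fraction and 0.05 in the other, beside 0.02 and 0.01 over all tested genes. The 4 comparisons share samples with each other, so their counts are not independent. β-cell markers moved in the same direction as the 3 receptors in β-cells, 5 of 8 of them called higher at 8 weeks and 0 lower, and their part in the result was not tested. Duct markers, nearly all of the sum from Spp1, went from between 80.7 and 145 CPM to between 874 and 1055 CPM in the same samples, with 1 of 4 called higher. Summed acinar markers went from between 77.7 and 154 CPM to between 367 and 779 CPM there, with 4 of 5 tested called higher. In non-β-cells they went from between 34.2 and 79.4 CPM to between 172 and 632 CPM, with 3 of 5 called higher. The part of duct and acinar cells in the receptor changes was not tested.

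**Figure D3:**
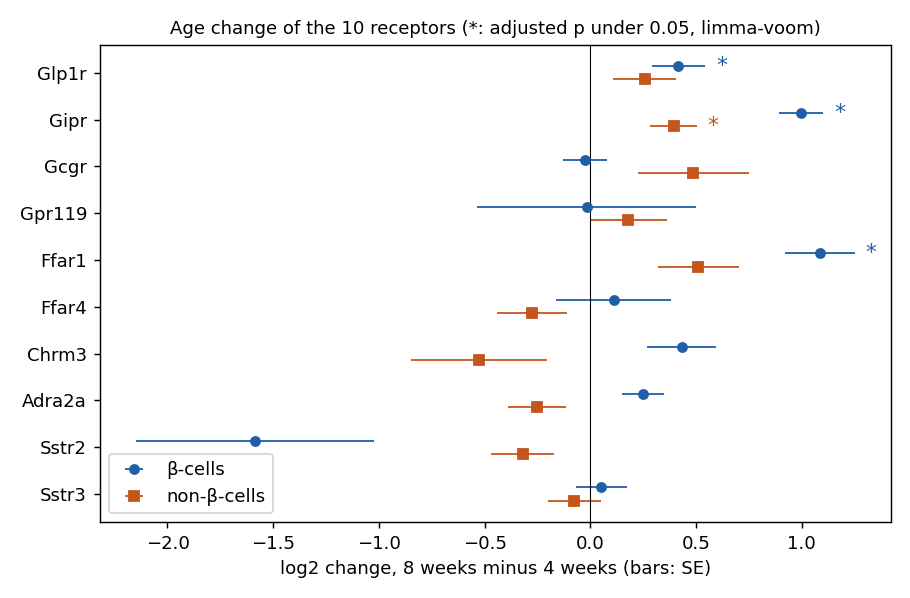
Log2 change from 4 to 8 weeks (x axis) of each receptor in β-cells (blue circles) and non-β-cells (orange squares), with SE bars and a star where the limma-voom adjusted p is under 0.05. Stars mark Glp1r at 0.42, Gipr at 1.00 and Ffar1 at 1.09 in β-cells and Gipr at 0.39 in non-β-cells.

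For each receptor, the genes whose log2 CPM followed it most closely over the 12 samples were found by Pearson's r among 10170 genes. The fraction difference sets most of these values for the 9 receptors that differ by fraction. Glp1r was closest to Eaf1 (r = 0.999) and Adora1 (r = 0.998), the latter an adenosine receptor. Gcgr was closest to Wscd1 and Prss53, Ffar1 to Ergic1 and Syt13, Chrm3 to 9330182L06Rik and Bcl2l2, Adra2a to Nup93 and Reep6, and Sstr3 to Tbcd and Pcx. On the non-β-cell side Gpr119 was closest to Gng2 and Basp1, Ffar4 to Pcsk1n and Aplp1, and Sstr2 to Egr2 and Rcn3. Gipr, whose samples divide mainly by age, was closest to Pde1c (r = 0.970) and Scrt1 (r = 0.970).

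Peptide ligands of islet receptors were read from a list of 12, of which 9 were tested. Gcg, Sst and Gip encode ligands of the 10 receptors, and the other 9 act on other receptors. Gcg, the source of glucagon and the ligand of Gcgr, was at a mean of 108569 CPM in 4-week non-β-cells and 122897 CPM at 8 weeks. In β-cells it fell with age from 6904 to 1989 CPM (log2 change -1.80, SE 0.20, limma-voom adjusted p = 7.36e-05). Sst, the ligand of Sstr2 and Sstr3, rose in non-β-cells from 5287 to 9670 CPM (log2 change 0.88, SE 0.28, limma-voom adjusted p = 0.0466). The other 3 delta-cell markers did not pass the test there, with Rbp4 at 875 and 686 CPM, Hhex at 39.7 and 41.5 CPM and Ghsr at 23.6 and 20.1 CPM at 4 and 8 weeks. Of the 9 tested, 2 fell with age in β-cells, beside 9.35% of all tested genes. These were Gcg and the pancreatic polypeptide gene Ppy (log2 change -1.72, SE 0.27, limma-voom adjusted p = 0.000831). Of the 8 alpha-cell markers, Gcg among them, 6 were called lower with age in the same β-cell samples. The part of other islet cells in these 2 falls was not tested. In non-β-cells 2 rose, Sst and Gal, which encodes galanin, beside 11.6% of all tested genes. Gal went from 2.62 to 31.8 CPM (log2 change 3.58, SE 0.33, limma-voom adjusted p = 1.09e-05). Gip, the ligand of Gipr, was listed at 0 in every sample.

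Processing enzymes of these ligands were also split. Pcsk1, the convertase that can cut proglucagon to GLP-1, rose with age from 178 to 340 CPM in β-cells (log2 change 0.94, SE 0.09, limma-voom adjusted p = 2.15e-05) and from 11.6 to 22.9 CPM in non-β-cells (0.98, SE 0.14, adjusted p = 0.000251). Pcsk2, the convertase that yields glucagon, was lower in β-cells by 1.52 at 4 weeks (log2 difference -1.52, SE 0.13, adjusted p = 9.71e-07). Dpp4, which inactivates the incretins, was higher in β-cells by 0.83 at 4 weeks (SE 0.13, limma-voom adjusted p = 0.000167), with no detectable age change.

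Of 52 other receptors on the list, 35 were tested. At 4 weeks 9 of them had more transcript in β-cells and 19 had less, beside 24.9% and 23.7% of all tested genes. At 8 weeks the counts were 9 and 21, beside 23.6% and 25.6%. The median log2 difference was -1.77 at 4 weeks and -0.91 at 8 weeks, beside 0.00 and 0.01 over all tested genes. The extremes were receptors with little signal in one fraction. Adrb1, an adrenergic receptor that stimulates Gs, was at 4.82 CPM in non-β-cells and 0.0170 CPM in 4-week β-cells, and at 4.33 CPM against 0 at 8 weeks. Crhr1, the receptor for corticotropin-releasing hormone, was at 2.91 CPM in 4-week β-cells and listed at 0 in the non-β-cells of that age, and it was at 1.73 and 0.249 CPM at 8 weeks. Ednra and Ednrb, the endothelin receptors, and Adra1a were also on the non-β-cell side. Ednrb was at 56.8 CPM in non-β-cells and 0.852 CPM in 8-week β-cells.

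**Figure D4:**
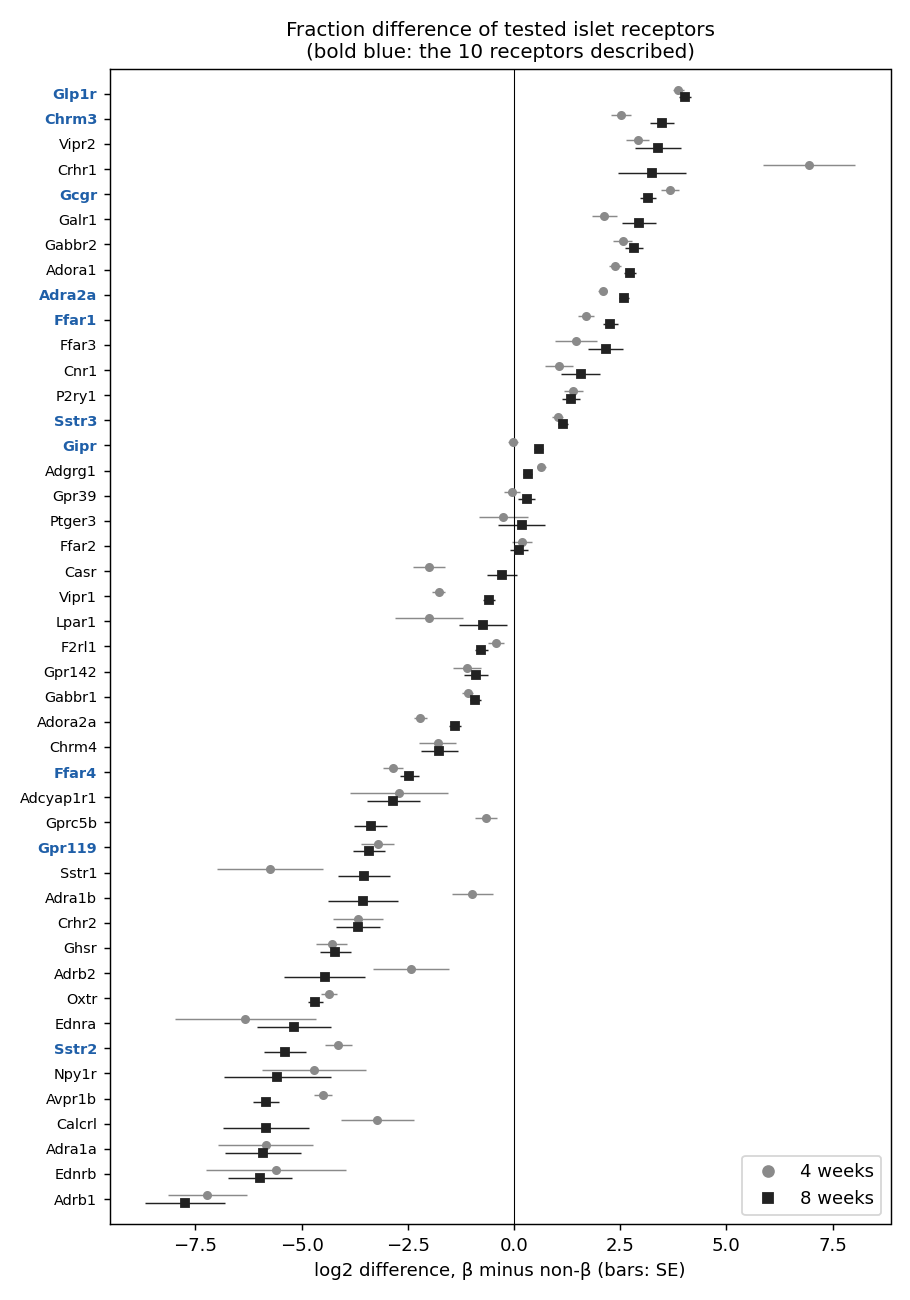
Log2 difference of β- minus non-β-cells (x axis) for the 45 tested receptors, the 10 described here in bold blue and 35 others in black, with SE bars, circles for 4 weeks and squares for 8 weeks, ordered by the 8-week value. Glp1r at 4.03 stands at the top and Sstr2 at -5.40 near the bottom, where Adrb1 is last.

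With age 7 of the 35 rose and 5 fell in β-cells, beside 8.59% and 9.35% of all tested genes. In non-β-cells 7 rose and 1 fell, beside 11.6% and 4.8%. Vipr2, a Gs receptor for VIP and PACAP, fell in β-cells from 23.4 to 7.90 CPM (log2 change -1.56, SE 0.19, limma-voom adjusted p = 0.000113) and in non-β-cells from 3.06 to 0.899 CPM (-2.04, SE 0.57, adjusted p = 0.0261). Gprc5b, an orphan receptor, fell in β-cells from 3.69 to 1.07 CPM (-1.86, SE 0.41, adjusted p = 0.00782), and Adra1b from 1.07 to 0.165 CPM. Ednrb rose in non-β-cells from 5.55 to 56.8 CPM (3.31, SE 0.34, limma-voom adjusted p = 2.55e-05), and Adcyap1r1, the PACAP receptor, from 0.794 to 3.68 CPM. Endothelial and mesenchymal markers rose in the same samples, 5 of 5 and 5 of 5, and their part in these changes was not tested. The age change differed between fractions for 3 of the 35, namely Gprc5b, Vipr1 and the adenosine receptor Adora2a, at -2.72, 1.18 and 0.81 on the log2 scale. Of all tested genes 5.13% differed in this way (1.8% with the higher change in β-cells, 3.33% with the lower).

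The proteins that carry, limit or end the receptor signal were taken as a list of 66 genes with the processing enzymes, of which 64 were tested. In β-cells 13 rose and 2 fell with age, and in non-β-cells 15 rose and 0 fell, with 4 lower at an unadjusted p under 0.05 (limma-voom). Of all tested genes 8.59% rose and 9.35% fell in β-cells, and 11.6% and 4.8% in non-β-cells. The median log2 change was 0.26 in the β-cell fraction and 0.06 in the other, beside 0.02 and 0.01 over all tested genes. None of the 10 G protein alpha subunits changed with age in β-cells by limma-voom, where 1 was higher at an unadjusted p under 0.05. In non-β-cells Gnas, which encodes Gs alpha, rose from 3254 to 4663 CPM (0.52, SE 0.11, adjusted p = 0.00549), and its age change was lower in β-cells by 0.68 (interaction -0.68, SE 0.15, limma-voom adjusted p = 0.0227). The fractions differed in Gi subunits, with Gnai2 at 1840 CPM in β-cells and 567 CPM in 4-week non-β-cells, and Gnai1 at 5.61 and 36.7 CPM.

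Of 16 genes that end or tune the receptor signal, 3 rose with age in β-cells and 1 fell, beside 8.59% and 9.35% of all tested genes, and 7 rose and 0 fell in non-β-cells (limma-voom, 1 lower at an unadjusted p under 0.05), beside 11.6% and 4.8%. Rgs4, which speeds the shut-off of Gi and Gq, went from 235 to 1129 CPM in β-cells (log2 change 2.26, SE 0.11, limma-voom adjusted p = 8.60e-08) and from 472 to 1072 CPM in non-β-cells (1.17, SE 0.11, adjusted p = 1.52e-05), with a larger change in β-cells by 1.09 (SE 0.16, adjusted p = 0.00155). Rgs9 rose in β-cells by 1.52 (SE 0.14) and Rgs2 by 0.70 (SE 0.15). The 1 that fell was Rgs3, from 164 to 103 CPM (-0.67, SE 0.12, limma-voom adjusted p = 0.00185). Pde1c, a calcium-dependent phosphodiesterase that degrades cyclic nucleotides, was 36.5, 36.3 and 28.6 CPM in 4-week β-cells and 106, 99.3 and 105 CPM at 8 weeks, against 29.6, 35.3 and 20.9 CPM and 46.6, 44.2 and 37.9 CPM in non-β-cells. As with Gipr, the 4-week fractions overlapped and the 8-week β-cells were highest. Pde1c rose by 1.62 in β-cells (SE 0.16, limma-voom adjusted p = 2.36e-05) and by 0.61 in non-β-cells (SE 0.17, adjusted p = 0.0275), and the changes differed by 1.01 (SE 0.23, adjusted p = 0.0253). Pde4b and Pde4a also rose in β-cells, so that 3 of 8 phosphodiesterases rose and 0 fell (limma-voom, 6 and 0 at an unadjusted p under 0.05), beside 8.59% and 9.35% of all tested genes. In non-β-cells 2 of the 8 rose, beside 11.6%.

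Among cyclic AMP effectors 4 of 15 rose and 1 fell in β-cells with age, and 0 of 15 changed in non-β-cells (limma-voom, 1 at an unadjusted p under 0.05), where 17.9% and 16.4% of all tested genes changed. Prkar1a, a regulatory subunit of protein kinase A, rose from 522 to 930 CPM in β-cells (0.84, SE 0.09, limma-voom adjusted p = 6.20e-05), while its relative Prkar1b fell from 444 to 257 CPM (-0.79, SE 0.12, adjusted p = 0.000686). The age change differed between fractions for both, by 0.73 for Prkar1a and -0.80 for Prkar1b. Pkib, an inhibitor of protein kinase A, rose by 0.69 in β-cells (SE 0.19, limma-voom adjusted p = 0.0222). The adenylyl cyclase Adcy6 rose in β-cells by 0.54 (SE 0.15, adjusted p = 0.0243), and Plcb3, a phospholipase C, rose by 0.48 in β-cells and by 0.60 in non-β-cells. Adcy4, Gna14 and Ramp3 rose in non-β-cells from under 1 CPM to between 4.08 and 8.08 CPM. In the same samples 5 of 5 endothelial, 5 of 5 mesenchymal, 4 of 4 duct and 3 of 5 tested acinar markers rose, beside 11.6% of all tested genes. The part of these cell types in the 3 changes was not tested.

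**Figure D5:**
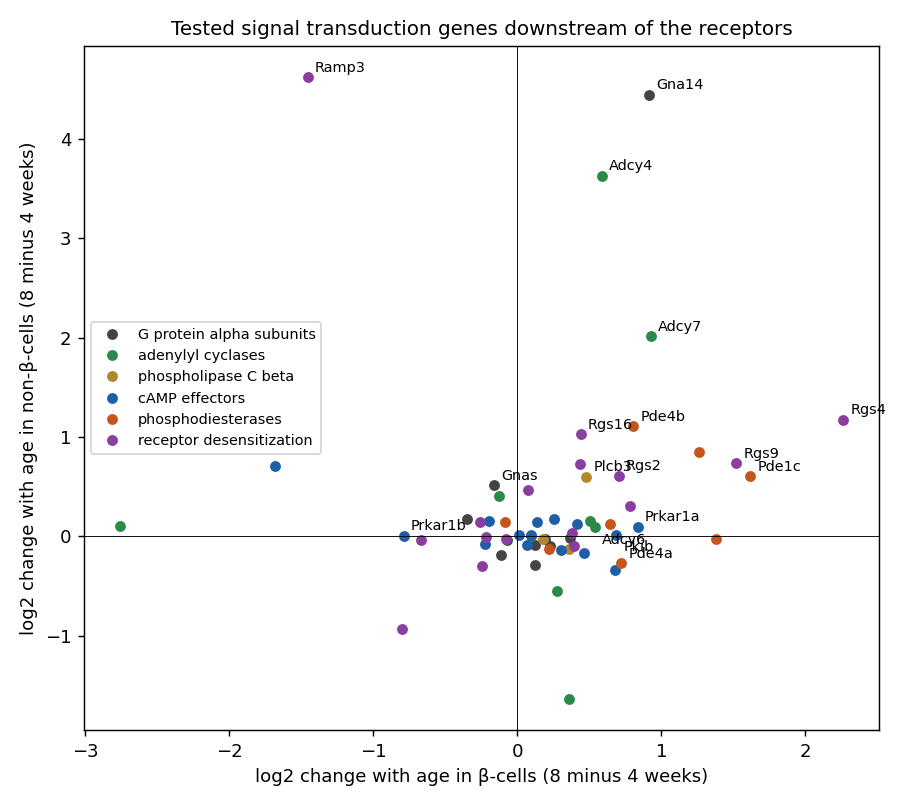
Log2 age change in non-β-cells (y axis) against that in β-cells (x axis) for the tested genes of receptor signalling, coloured by kind, with names for those singled out in either fraction. Rgs4 lies farthest to the right at 2.26, Pde1c at 1.62, and Ramp3, Gna14 and Adcy4 lie at the top.

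Between fractions 5 of 9 adenylyl cyclases were lower in 4-week β-cells and 7 of 9 at 8 weeks, beside 23.7% and 25.6% of all tested genes, with 1 higher at each age. Adcy5 was at 0.500 CPM in β-cells and 10.1 CPM in 4-week non-β-cells (log2 difference -4.38, SE 0.63, limma-voom adjusted p = 9.60e-05). Of the phosphodiesterases, Pde4d was at 3.90 CPM in β-cells and 52.2 CPM in 4-week non-β-cells, a difference of -3.77 (SE 0.38, adjusted p = 4.39e-06). Rapgef3, a cyclic AMP-activated exchange factor, was at 1.04 and 9.74 CPM, while its relative Rapgef4 was at 96.9 and 60.3 CPM. Prkar2b was on the β-cell side, at 46.2 CPM against 18.9 CPM at 4 weeks. Arrb1, a beta-arrestin that ends receptor signalling, was at 4.88 CPM in β-cells against 13.1 CPM in non-β-cells at 4 weeks. The other beta-arrestin, Arrb2, was at 61.8 CPM against 53.6 CPM.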

How the data were processed

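RNA from the 12 samples was sequenced from strand-specific, low-input total RNA libraries. Per the study's methods, the authors filtered reads with fastp, assigned them to Ensembl release 98 transcripts (GRCm38) with kallisto and summed transcripts to genes with tximport, and deposited estimated counts per gene, which are neither scaled nor filtered. Versions of these tools are not given in the sources used here. Estimated counts were rounded, genes with CPM above 1 in at least 3 samples were kept (15598), and libraries were scaled by TMM (trimmed mean of M-values, edgeR 4.0.16). Following the study, limma-voom (limma 3.58.1, R 4.3.3) was fitted to all 12 samples with a mean per group, two-sided, with Benjamini-Hochberg adjustment over all tested genes and a threshold of 0.05. The interaction subtracts the age change of the non-β-cell fraction from that of β-cells. Coordinates and transcript lengths come from GENCODE M21 on GRCm38, counted from 1. The receptors and gene lists were chosen with earlier results of these data known. From the other lists, up to 3 genes per comparison with the largest called, non-overlapping difference, and ligands that passed, were named, together with the 2 genes most correlated with each receptor among those with a mean log2 CPM of at least 3 (prior count 2). Arrb2 and Rapgef4 were added outside this rule, as relatives of Arrb1 and Rapgef3.

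Results were recomputed with DESeq2 1.42.0, edgeR's quasi-likelihood test, DESeq2 size factors, library totals without TMM, no filter, a filter of 10 counts in 6 samples, quality weights, a replicate block, only the groups compared, a 2-fold minimum and omission of samples. Counts were also simulated for all 12 samples at each gene's mean over both fractions, with changes put into the 8-week β-cell samples. In the comparison of 8- against 4-week β-cells (15143 genes), limma-voom recovered 57 of 98 genes changed 2-fold and 77 of 97 changed 4-fold, with 4 false calls. Recovery at the levels of real β-cells was not simulated.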

Additional observations from a re-analysis of the deposited data

Results flagged for a closer look

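The age change of Gipr differed between the fractions. From 4 to 8 weeks the log2 change was 1.00 for the β-cell samples and 0.39 for the others, a difference of 0.60 (SE 0.15, limma-voom interaction, adjusted p = 0.0376). It was singled out because the difference between 2 changes under the same contrast passed its own test. All 8-week β-cell samples (59.7 to 64.5 CPM) were above all 8-week non-β-cell samples (36.9 to 43.9 CPM), while at 4 weeks the fractions overlapped. The call was lost without any of 9 libraries, with a difference of 0.51 to 0.63 on the log2 scale.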

How the results depend on the processing

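No receptor's called difference changed direction under any alternative. Of 1090 values of single receptors under alternatives, 1015 kept both their sign and their side of the threshold, whatever the change in size. Of the rest, 29 lost a call, 27 gained one and 19 changed sign with no call either way. The fraction counts of 9 and 10 receptors held under the alternatives, except that 9 passed a 2-fold minimum at 8 weeks. For the age change in β-cells, where 3 receptors were called, sample quality weights called 6, a 2-fold minimum 1, and omission of both 4-week samples numbered 3 gave 5. For the age change in non-β-cells, where 1 was called, edgeR's quasi-likelihood test and quality weights each called 2, DESeq2 and omission of both samples numbered 3 each called 3, and total counts, no filter, only the groups compared and the 2-fold minimum each called 0. For the interaction, where 1 was called, DESeq2 and quality weights called 3, omission of both samples numbered 3 called 2, and total counts, no filter and the 2-fold minimum called 0. With 1 replicate left out, the counts ranged over 2 to 4 for β-cells, 0 to 2 for non-β-cells, 0 to 2 for the interaction, 9 to 9 for fractions at 4 weeks and 10 to 10 at 8 weeks. The share of all genes called under each alternative is not given here, so these counts show only how the receptor calls varied. Causes were not tested. With the replicate number as a block, 4 receptors were called in β-cells, 1 in non-β-cells, 9 and 10 between fractions, and 2 for the interaction (Chrm3 and Gipr). Correlations of same-numbered samples' deviations from their group means were 0.08, 0.13 and 0.31 between fractions at 4 weeks and 0.02, 0.05 and 0.01 at 8 weeks. Those of different-numbered samples ran from -0.23 to 0.11 at 4 weeks and from -0.03 to 0.01 at 8 weeks. Whether equal numbers mark the same islet preparation is not stated in the sources used here, and these values do not settle it. The main fit did not take equal numbers as pairs. Depth limits Gpr119 and Sstr2 in β-cells, at 14 to 70 estimated counts per library.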

Other observations

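Relatives of the 10 receptors, named for their families after their values were seen, had patterns of their own. Ffar3, a receptor for short-chain fatty acids, rose with age in β-cells from 3.07 to 7.28 CPM (log2 change 1.26, SE 0.30, limma-voom adjusted p = 0.0126) and exceeded the non-β-cell level by 1.47 at 4 weeks (SE 0.50) and 2.16 at 8 weeks (SE 0.41). Ffar2, a receptor for the same ligands, was at 16.2 CPM in β-cells and 14.5 CPM in 4-week non-β-cells, and its difference of 0.20 (SE 0.24) did not pass the test. Sstr1 was on the same side as Sstr2, at 0.0679 CPM in β-cells and 2.63 CPM in 4-week non-β-cells, while Sstr4 and Sstr5 stayed at or under 0.187 CPM in every group mean. Chrm4, a Gi-coupled muscarinic receptor, was lower in 4-week β-cells, at 1.40 CPM against 5.10 CPM (log2 difference -1.80, SE 0.44, limma-voom adjusted p = 0.00486). Adra2b and Adra2c had group means of at most 0.403 CPM. Ghsr, the ghrelin receptor of delta-cells, was at 5.21% of its non-β-cell level in 4-week β-cells and 5.51% at 8 weeks.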
